A study of Homo sapiens with 10 samples.

Results

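This account covers 9 genes of the transcription elongation machinery that take part in the release of RNA polymerase II or in its control: the BET bromodomain readers BRD2 and BRD3, the positive transcription elongation factor P-TEFb (CDK9, CCNT1 and CCNT2), and the P-TEFb regulators and partners HEXIM1, LARP7, AFF4 and ELL2. The members were chosen by name, with earlier results of these data known, and compared with 20098 protein-coding genes of the autosomes and chromosome X. The cells were HEK293, an established line derived from human embryonic kidney. In ChIP-seq, DNA bound by a protein in crosslinked chromatin is recovered with an antibody and sequenced, and the sites with more reads than the background are called as peaks. The labels give 10 samples, of which 4 belong to the targets of the peak lists described here: 2 replicates precipitated with an antibody to ZMYND8 itself and 2 precipitated with anti-FLAG. All came from Flp-In T-REx HEK293 cells that carried a tagged ZMYND8 transgene. For the ZMYND8 ChIP the labels name stable expression of 3xFLAG-ZMYND8 or of its bromodomain mutant N228F, without saying which cells were used, and they name no inducer. For the FLAG-ZMYND8 ChIP the cells held an inducible full-length 3xFLAG-ZMYND8 that was overexpressed with 10 nM doxycycline. Antibody, tagged protein level and induction therefore differ together between the lists and cannot be told apart. The form of the transgene, unmutated or N228F, may differ as well. The samples for acetylated histone H3 (H3K14ac and H3K27ac) and the inputs were not used.

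P-TEFb is the kinase that releases RNA polymerase II from its pause near the start of a gene. CDK9 is its catalytic subunit and cyclin T1 (CCNT1) or cyclin T2 (CCNT2) its activating partner. Much of the kinase is held inactive in a particle built on the 7SK RNA, in which HEXIM1 is the inhibitor and LARP7 the protein that binds and stabilizes the RNA. BET proteins read acetylated histones and help to bring P-TEFb to promoters, and the super elongation complex, with AFF4 as its scaffold and ELL2 as an elongation factor, carries an active pool of it.

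The ZMYND8 list holds 15086 peaks and the FLAG-ZMYND8 list 63690. The score column holds 1 in every row, so the width of a peak is the only measure of its size. Many peaks sit at the minimum width of their list, which is 151 bp for ZMYND8 (53.0% of the peaks) and 167 bp for FLAG-ZMYND8 (54.7%). Each target has a single list that names no replicate and holds no counts of reads. The depth is therefore unknown, no spread between replicates can be given and no test was made. A site that missed the calling threshold is not in the lists.

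The ZMYND8 antibody peaks at the TSSs of these genes and the first of the pair in the body of BRD2 are the sites on which the comparison of the lists rests, and their reference sequences (hg19, strand of the gene, 5′ to 3′) are therefore shown, with every CpG in capitals. The CCNT1 and CCNT2 peaks span the end of the first exon, the HEXIM1 peak lies upstream of the gene, the BRD3 peak lies in an intron and the BRD2 peak touches a coding exon far from the TSS. The second BRD2 peak, which is in part annotated untranslated sequence, is described with the gene. Of the CCNT1 peak, the 180 bases outside annotated untranslated sequence are given.
CCNT1, chr12:49110279-49110458, minus strand: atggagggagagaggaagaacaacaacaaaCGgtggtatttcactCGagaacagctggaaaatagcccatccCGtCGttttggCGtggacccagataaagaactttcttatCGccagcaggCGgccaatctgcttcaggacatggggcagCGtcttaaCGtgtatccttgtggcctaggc
CCNT2, chr2:135676553-135676703, plus strand: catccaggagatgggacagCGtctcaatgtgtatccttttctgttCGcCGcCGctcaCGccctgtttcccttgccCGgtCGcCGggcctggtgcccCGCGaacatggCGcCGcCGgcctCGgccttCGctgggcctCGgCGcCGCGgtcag
HEXIM1, chr17:43224879-43225071, plus strand: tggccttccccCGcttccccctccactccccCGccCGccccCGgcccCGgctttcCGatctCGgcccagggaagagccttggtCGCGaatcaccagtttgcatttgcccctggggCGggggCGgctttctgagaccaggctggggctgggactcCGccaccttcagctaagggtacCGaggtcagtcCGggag
BRD3, chr9:136931248-136931398, minus strand: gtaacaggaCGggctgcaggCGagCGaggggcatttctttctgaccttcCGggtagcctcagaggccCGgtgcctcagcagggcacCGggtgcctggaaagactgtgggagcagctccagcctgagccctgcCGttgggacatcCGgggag
BRD2, chr6:32942387-32942537, plus strand: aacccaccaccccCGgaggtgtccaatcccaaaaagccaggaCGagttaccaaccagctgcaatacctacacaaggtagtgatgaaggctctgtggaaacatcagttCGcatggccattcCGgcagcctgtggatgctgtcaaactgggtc

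Of the 9 genes, 4 (BRD3, CCNT1, CCNT2 and HEXIM1) had a ZMYND8 peak at the transcription start site (TSS), meaning a midpoint at most 3 kb from it, against 34.1% of all protein-coding genes. A FLAG-ZMYND8 peak lay there in 7 of 9 genes, all but CDK9 and LARP7, against 58.1% of all protein-coding genes. Peaks of both lists were found at 4 members (29.4% of all genes) and of neither list at 2 (37.2%). The 9 genes hold CpG-rich promoters, each with at least 21 CpG sites in the 250 bases before and 50 after the TSS. Among the 8911 protein-coding genes with as many, a comparison chosen after the values were seen, 48.6% had a ZMYND8 peak, 78.5% a FLAG-ZMYND8 peak and 15.4% neither. In the gene body beyond 3 kb, 1 member had a ZMYND8 peak (20.7% of the genes long enough to have such a part) and 5 had a FLAG-ZMYND8 peak (48.8%). Read against these shares, the counts over so few genes set the members apart in neither list. What differed among the members was the amount and the place of the peaks.

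**Figure D1:**
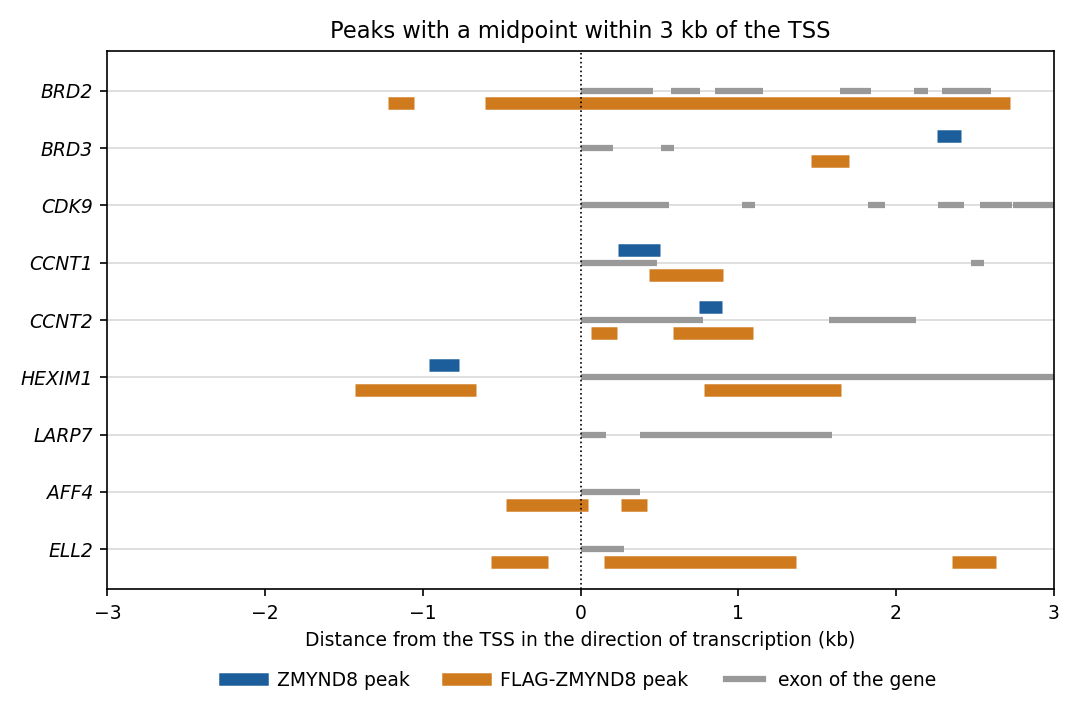
Peaks with a midpoint within 3 kb of the TSS of the 9 genes, drawn to scale against the distance from the TSS in kb, with ZMYND8 peaks above and FLAG-ZMYND8 peaks under each gene line and exons in grey. The 4 ZMYND8 peaks are short, the 3331 bp FLAG-ZMYND8 peak of BRD2 spans the TSS, and CDK9 and LARP7 have no peak.

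Of the BET genes, BRD2 had the most FLAG-ZMYND8 peak sequence of all members and no ZMYND8 peak at its TSS. BRD2 (ENSG00000204256) lies on the plus strand at chr6:32936371-32949282. A FLAG-ZMYND8 peak of 3331 bp, chr6:32935766-32939096, ran from 605 bp upstream to 2725 bp downstream of the TSS and ranked 12 by width among all FLAG-ZMYND8 peaks. With a further peak of 167 bp whose midpoint was 1138 bp upstream, 3498 bases within 3 kb of the TSS were under FLAG-ZMYND8 peaks. As many were found at 0.114% of protein-coding genes, which placed BRD2 at rank 23 of 20098. The broad peak also covers the TSS of HLA-DMA, a chaperone subunit of MHC class II loading, which starts on the other strand 500 bp inside BRD2. A long non-coding RNA (ENSG00000223837) starts under the peak as well, 1638 bp downstream of the TSS of BRD2. The midpoint of the peak lay 560 bp from the TSS of HLA-DMA and 1060 bp from that of BRD2. The lists do not say to which of these genes the peak belongs. A broad FLAG-ZMYND8 peak without a ZMYND8 peak was not particular to BRD2. Of the 12 FLAG-ZMYND8 peaks at least as wide, 6 overlapped a ZMYND8 peak.

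The body of BRD2 was also the most densely marked. Beyond 3 kb it held 7 FLAG-ZMYND8 peaks, between 167 and 593 bp wide, which is 7.06 per 10 kb. Among the 17227 protein-coding genes of at least 5 kb, 0.331% were as dense. The only ZMYND8 peaks in the body of any member were found here. They were both 151 bp wide, at the minimum, with midpoints 6091 and 7902 bp downstream of the TSS, and each lay whole within a FLAG-ZMYND8 peak, of 316 bp and of 229 bp. Their midpoints were 42 and 12 bp from those of the FLAG-ZMYND8 peaks. All 7 FLAG-ZMYND8 peaks of the body touched an exon, but annotated exons of 25 transcripts take up 75.1% of that stretch. The transcripts of BRD2 have 22 different starts. For each body peak of both lists, the nearest annotated gene start was that of a long non-coding RNA (ENSG00000263756). The midpoint of the 593 bp peak lay 34 bp from it. The body peaks are thus not all far from an annotated start. These ZMYND8 peaks had 2.65 and 0.662 CpG sites per 100 bp, whereas the 4 ZMYND8 peaks at the TSSs of other members had between 5.30 (BRD3) and 12.6 (CCNT2).

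BRD3, the other BET gene, had little peak sequence at its start. The gene (ENSG00000169925) lies on the minus strand at chr9:136895427-136933657. The ZMYND8 peak, at the minimum width of 151 bp, had its midpoint 2334 bp and a FLAG-ZMYND8 peak of 237 bp had it 1581 bp downstream of the TSS, both within the same intron, and they did not overlap. The ZMYND8 peak is thus the farthest from its TSS of the 4, and a window of 1 kb would leave BRD3 without a peak of either list. In the body BRD3 had 5 FLAG-ZMYND8 peaks of 167 to 265 bp, or 1.42 per 10 kb, a density reached by 10.1% of genes, and 2 of the 5 touched an exon.

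Within P-TEFb, both cyclin T genes had a ZMYND8 peak that overlapped a FLAG-ZMYND8 peak, whereas CDK9 had no peak in either list. CCNT1 (ENSG00000129315) lies on the minus strand at chr12:49082241-49110781. Its ZMYND8 peak, chr12:49110279-49110542, was 264 bp wide and reached from 239 to 502 bp downstream of the TSS, across the end of the first exon at 483 bp. It was the widest ZMYND8 peak of the members, and 16.9% of protein-coding genes had as many bases under ZMYND8 peaks. The FLAG-ZMYND8 peak of 468 bp covered 434 to 901 bp and shared 69 bp with it. A single further FLAG-ZMYND8 peak, of 167 bp, lay in an intron 8627 bp downstream.

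CCNT2 (ENSG00000082258) lies on the plus strand at chr2:135675805-135716912. Its ZMYND8 peak of 151 bp covered 748 to 898 bp downstream of the TSS and lay whole within a FLAG-ZMYND8 peak of 508 bp that covered 587 to 1094 bp. The midpoints of these peaks were 18 bp apart. A second FLAG-ZMYND8 peak had its midpoint 150 bp downstream and was 167 bp wide, and the body had none. The antisense transcript CCNT2-AS1 starts 477 bp downstream of the CCNT2 TSS, nearer to both overlapping peaks than the TSS of CCNT2 itself.

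The cyclin T paralogs shared more than the presence of a peak. In each gene the overlapping ZMYND8 and FLAG-ZMYND8 peaks both ran across the end of the first exon, which holds the start codon, into the first intron. A search for the best ungapped match among the ZMYND8 peak sequences of the members found 34 bases, of which 30 were identical, between the CCNT1 and CCNT2 peaks, and these bases lie under the peaks of both lists in both genes. The match covers the last 26 bases of the first exon and the first 8 of the intron in each gene. The bases are shown with the identical bases in capitals.
CCNT1, chr12:49110290-49110323, minus strand: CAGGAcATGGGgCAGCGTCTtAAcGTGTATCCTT
CCNT2, chr2:135676557-135676590, plus strand: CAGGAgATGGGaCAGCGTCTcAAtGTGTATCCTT
No other pair of these ZMYND8 peaks scored as high, the next best being 14 (20 bases, 17 identical, between CCNT2 and HEXIM1) against 26 for the cyclins, with 1 point for a match and 1 lost for a mismatch. The genes encode related proteins, and the match is given as a description of where the peaks lie.

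CDK9 (ENSG00000136807, chr9:130547958-130553071, plus strand), the catalytic subunit, had no peak of either list within 3 kb of the TSS or in its 5114 bp. The nearest FLAG-ZMYND8 peak was 5833 bp downstream and 167 bp wide, and the nearest ZMYND8 peak 9031 bp downstream and 151 bp wide, both beyond the end of the gene and at the minimum width of their lists. Across all protein-coding genes, 25.6% had no peak at the TSS or in the body. CDK9 had the most CpG-rich start of the members, with 42 CpG sites and a GC content of 82.0% in the 300 bases around the TSS, and 6.32% of protein-coding genes had as many CpG sites.

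**Figure D2:**
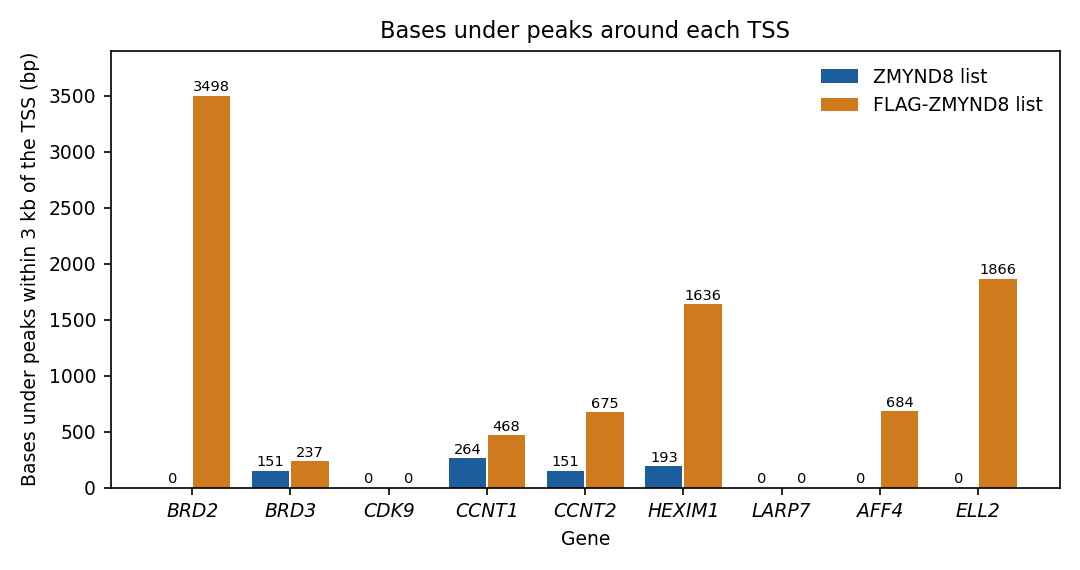
Bases under ZMYND8 (blue) and FLAG-ZMYND8 (orange) peaks within 3 kb of the TSS for each of the 9 genes, in bp, with 1 list per target and hence no error bars. The FLAG-ZMYND8 bars range from 0 at CDK9 and LARP7 to 3498 at BRD2, and the ZMYND8 bars do not exceed 264.

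Of the genes of the 7SK particle, HEXIM1 had peaks of both lists and LARP7 of neither. HEXIM1 (ENSG00000186834, chr17:43225842-43229466, plus strand) is a gene with a single exon, and its TSS lies 5 bp from that of a long non-coding RNA on the other strand (ENSG00000276728). A ZMYND8 peak of 193 bp had its midpoint 867 bp upstream of the TSS and was the only ZMYND8 peak of a member on the upstream side. It lay whole within a FLAG-ZMYND8 peak of 769 bp whose midpoint was 1049 bp upstream. A FLAG-ZMYND8 peak of 867 bp, with its midpoint 1215 bp downstream, lay in the coding sequence and had no ZMYND8 partner. Together 1636 bases were under FLAG-ZMYND8 peaks, as many as at 2.84% of genes. The TSS itself lay between these peaks and was under none of them.

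LARP7 (ENSG00000174720, chr4:113558233-113578852, plus strand) had no peak of either list at the TSS or in its 20620 bp. The nearest FLAG-ZMYND8 peak was 37490 bp downstream and the nearest ZMYND8 peak 121330 bp upstream. ZGRF1 starts 82 bp upstream of LARP7 on the other strand, so that this start of a pair of protein-coding genes had no peak. LARP7 and CDK9 were thus listed without a site, while the genes of their partners HEXIM1, CCNT1 and CCNT2 each had a site in both lists.

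AFF4 and ELL2, the members that belong to the super elongation complex, had FLAG-ZMYND8 peaks only, at the TSS and in the body. AFF4 (ENSG00000072364, chr5:132211087-132299326, minus strand) had a FLAG-ZMYND8 peak of 517 bp that covered the TSS, from 470 bp upstream to 46 bp downstream, and another of 167 bp with its midpoint 338 bp downstream. The first also covers the TSS of the divergent long non-coding RNA AFF4-DT, 136 bp upstream. The nearest ZMYND8 peak was 20351 bp upstream. In the 88240 bp of the gene, 4 further FLAG-ZMYND8 peaks were spread from 13921 to 85468 bp downstream, 3 of them at the minimum width.

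ELL2 (ENSG00000118985, chr5:95220802-95297555, minus strand) had 3 FLAG-ZMYND8 peaks around the TSS, the most of any member. The widest, of 1222 bp with rank 611 in the list, covered 146 to 1367 bp downstream. The others were 362 bp wide, with the midpoint 388 bp upstream, and 282 bp wide, with the midpoint 2495 bp downstream. Their bases within 3 kb of the TSS added up to 1866, as many as at 1.95% of genes. The nearest ZMYND8 peak, in contrast, was 126855 bp away, the largest such distance among the members. The body held 2 FLAG-ZMYND8 peaks, both in introns.

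**Figure D3:**
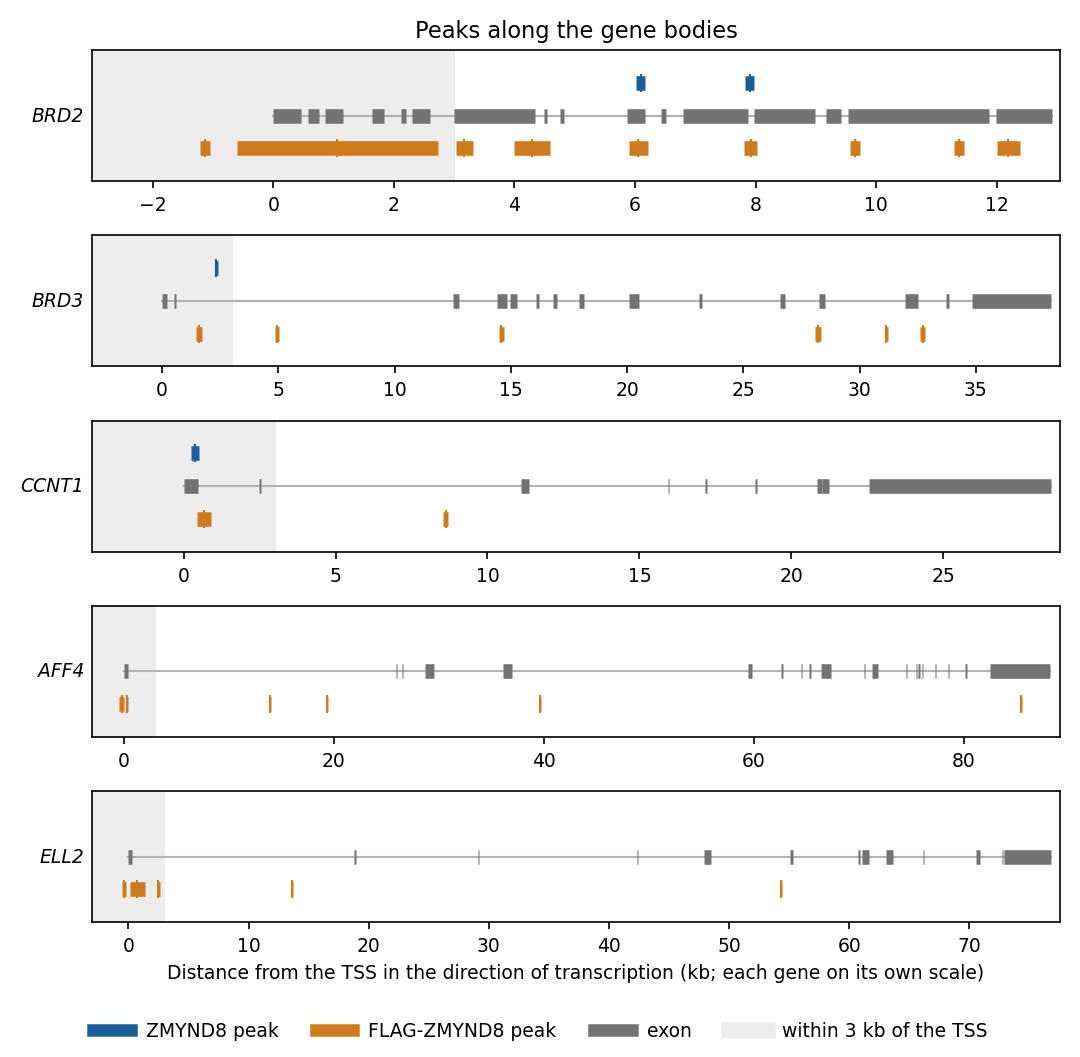
Peaks along the 5 genes with a peak in the body beyond 3 kb, against the distance from the TSS in kb on a separate scale for each gene, with a tick at each midpoint, exons in dark grey and the 3 kb around the TSS shaded. BRD2 carries 7 FLAG-ZMYND8 peaks in its short body and the only ZMYND8 peaks in a body, whereas the peaks of AFF4 and ELL2 lie far apart.

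Over the members together, the order of FLAG-ZMYND8 peak bases at the TSS was BRD2 (3498), ELL2 (1866), HEXIM1 (1636), AFF4 (684), CCNT2 (675), CCNT1 (468) and BRD3 (237), with CDK9 and LARP7 at 0. The median was 675, against 498 over the 30 other elongation genes described below and 167 over all protein-coding genes. For ZMYND8 the order was CCNT1 (264), HEXIM1 (193), then BRD3 and CCNT2 (151 each) and 0 for the other members, and the median was 0 in the members and in all genes. The gene with the most FLAG-ZMYND8 bases was therefore not among those with ZMYND8 bases. Without replicates no spread is known, and neighbours as close as AFF4 and CCNT2 cannot be ordered.

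**Figure D4:**
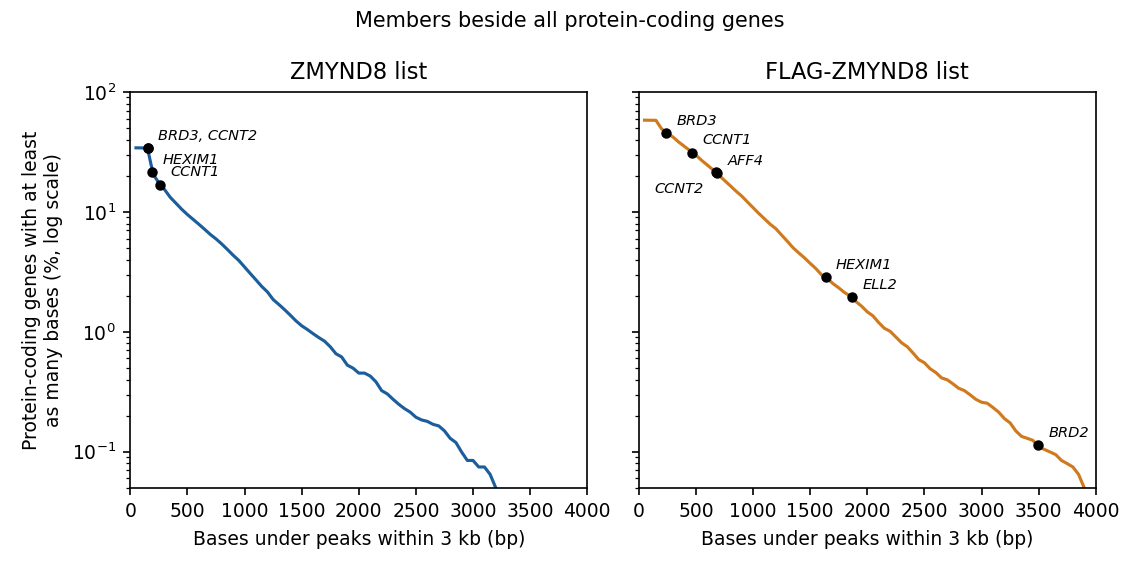
Share of the 20098 protein-coding genes with at least a given number of bases under peaks within 3 kb of the TSS (percent, log scale), for ZMYND8 on the left and FLAG-ZMYND8 on the right, with the members that have a peak as points. The 4 ZMYND8 points lie at 151 to 264 bases, and the FLAG-ZMYND8 points extend to BRD2 at 3498 bases and 0.114%.

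The peaks of the members had wider FLAG-ZMYND8 and narrower ZMYND8 medians at the TSS than the peaks of all protein-coding genes. The 13 FLAG-ZMYND8 peaks at member TSSs had a median width of 468 bp against 227 bp over 19185 peaks, and 3 of the 13 were at the minimum (36.0% over all genes). The 4 ZMYND8 peaks had a median of 172 bp against 226 bp over 6360 peaks. Of the 4 ZMYND8 peaks, 3 overlapped a FLAG-ZMYND8 peak (56.4% over all genes), and 3 of 13 had a ZMYND8 partner in the other direction (21.4%). Downstream of the TSS lay 3 of 4 ZMYND8 peaks (65.4% over all genes) and 9 of 13 FLAG-ZMYND8 peaks (60.1%). In the bodies, 10 of 19 FLAG-ZMYND8 peaks touched an exon of the gene, 7 of them in BRD2, against 20.7% of body peaks over all genes. With so few peaks these shares describe the members and were not tested.

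The limit of 3 kb placed few peaks. Just inside it were the ZMYND8 peak of BRD3 at 2334 bp and a FLAG-ZMYND8 peak of ELL2 at 2495 bp. Just outside were FLAG-ZMYND8 peaks of BRD2 at 3171 bp, of HEXIM1 at 3177 bp upstream and at 3895 bp downstream, and of BRD2 at 4293 bp.

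Promoters with and without a peak are shown side by side. For AFF4, with a FLAG-ZMYND8 peak over its TSS, and for CDK9 and LARP7, without a peak, the 250 bases before the TSS are shown with every CpG in capitals. For LARP7 only the 87 bases outside annotated untranslated sequence of ZGRF1 are given.
AFF4, chr5:132299327-132299576, minus strand: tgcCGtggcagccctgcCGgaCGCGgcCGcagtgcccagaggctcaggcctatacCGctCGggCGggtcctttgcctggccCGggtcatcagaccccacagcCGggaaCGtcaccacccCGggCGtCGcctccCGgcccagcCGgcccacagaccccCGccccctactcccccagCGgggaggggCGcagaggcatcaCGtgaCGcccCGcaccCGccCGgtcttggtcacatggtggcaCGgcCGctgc
CDK9, chr9:130547708-130547957, plus strand: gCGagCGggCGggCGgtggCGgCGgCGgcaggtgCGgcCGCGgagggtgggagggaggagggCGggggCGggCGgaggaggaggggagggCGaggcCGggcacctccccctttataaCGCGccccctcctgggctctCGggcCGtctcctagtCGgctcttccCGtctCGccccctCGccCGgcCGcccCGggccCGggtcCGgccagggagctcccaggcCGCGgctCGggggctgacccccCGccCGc
LARP7, chr4:113558146-113558232, plus strand: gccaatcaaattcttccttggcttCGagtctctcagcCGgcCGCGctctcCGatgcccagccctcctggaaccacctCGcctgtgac

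In the 250 bases before and 50 after the TSS, the members had 21 (CCNT2) to 42 (CDK9) CpG sites, with a median of 30.0 against 18.0 over all protein-coding genes. LARP7 had 25, within the range of the members with peaks. The GC box GGGCGG, searched on both strands like all motifs, was found in 8 of 9 members, all but CCNT2, and in 52.2% of all genes. The half-site TGACGT of cAMP response elements was found in LARP7, AFF4 and ELL2, against 8.87% of all genes. A whole palindrome counts as 2 matches, and ELL2 had 4 and LARP7 had 3. CCAAT was found in 4 members (35.8% of all genes), TATAAA in CDK9 and HEXIM1 (10.9%), the E-box CACGTG in AFF4 (8.33%) and CGGAAG, the core of ETS sites, in 0 members (21.8%). TGACGT and CACGTG were found only in members without a ZMYND8 peak at the TSS. BRD2 and CDK9, which also had no such peak, held neither motif. No motif fully separated the members with a ZMYND8 peak at the TSS from those without, and this was not tested.

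The other genes of the pathway, 30 genes of the 7SK particle, the super elongation complex, pausing and elongation factors and the BET gene BRDT, had a ZMYND8 peak at the TSS in 15 cases and a FLAG-ZMYND8 peak in 24. Both lists had a peak at 14 of them and neither at 5. Over all protein-coding genes the shares were 34.1% for ZMYND8, 58.1% for FLAG-ZMYND8, 29.4% for both and 37.2% for neither. Among the 8911 genes with CpG-rich promoters described above, they were 48.6% for ZMYND8, 78.5% for FLAG-ZMYND8 and 15.4% for neither. The counts over the 30 genes lie close to the latter shares and were not tested. Of the 30 genes, SUPT6H, named after its values were seen, was the single one with a ZMYND8 peak alone. The most ZMYND8 bases were found at CDC73 (856), CDK12 (648) and CTR9 (502), each above the 264 of CCNT1. CDC73 and CTR9 belong to the PAF1 elongation complex and CDK12 is a kinase of the polymerase tail. No peak of either list lay at the TSS of AFF3, a relative of AFF4, of NELFA and NELFCD, subunits of the pausing factor NELF, of RTF1, or of BRDT, the BET gene of the testis. In their bodies AFF3 had 6 ZMYND8 and 15 FLAG-ZMYND8 peaks, whereas BRDT had none in either list. These are plain counts that take no account of the length of the genes. The pattern of CCNT1 was matched most closely by RAB39A and SLC35F2, both with 266 ZMYND8 and 468 FLAG-ZMYND8 bases, and by EEFSEC with 268 and 474, by the distance of log2(bases + 1) over the pair of lists.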

How the data were processed

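The 9 genes, the pathway list and the motifs were chosen with earlier results of these data known. Alignment was to hg19 with BWA (0.7 for the ZMYND8 ChIP), and HOMER was also used, per the submitters' processing notes. How peaks were called and replicates combined is not given in the sources used here. The score that the authors deposited is 1 in all rows and was not used. All peaks lie within the GRCh37 chromosomes. TSSs were the 5′ ends of genes in GENCODE release 44 lifted to GRCh37, the build of hg19, and sequences came from the GRCh37 genome. A peak was placed by its midpoint, at the TSS within 3 kb or else in the gene body. Peaks overlapped when they shared at least 1 bp. The labels give 2 samples per target but each target has 1 list, so no test was made. Placing and overlap were tested on simulated peaks. Named were the members, the 3 pathway genes with the most ZMYND8 bases at the TSS, those without a peak there, and the 3 genes most like the member with the most ZMYND8 bases. Alternatives were windows of 1 kb and 500 bp, any overlap, peaks wider than the minimum, transcript starts, a reciprocal overlap of 50%, and the widest FLAG-ZMYND8 peaks. Python 3.11.15, numpy 2.4.6, pandas 2.3.3, pysam 0.24.0 and matplotlib 3.10.9 were used.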

Additional observations from a re-analysis of the deposited data

How the results depend on the processing

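No paired analysis was possible because each target has 1 list without replicate names, so no replicate could be left out either. Of 43 combinations of a count and an alternative, 23 stayed within 1.5 times the count given and 20 did not. With a window of 1 kb, ZMYND8 peaks were left at 3 members (CCNT1, CCNT2 and HEXIM1), where the share over all genes was 28.5%. For FLAG-ZMYND8, 7 peaks at 4 members were left, and the share over all genes was 49.3%. BRD2 was not among these 4, since the midpoint of its broad peak lies 1060 bp from the TSS that the peak covers. Both lists were left at 2 members. For these alternatives no share of all genes with both lists is given, so such counts have no background here. Within 500 bp, 1 gene (CCNT1) with 1 ZMYND8 peak, 3 genes (CCNT2, AFF4 and ELL2) with 4 FLAG-ZMYND8 peaks and 0 genes with both were left, 1 ZMYND8 peak overlapped a FLAG-ZMYND8 peak, and the bodies held 4 ZMYND8 peaks. A narrower window can only lower the counts at TSSs, and over all genes the shares fell to 21.5% for ZMYND8 and 37.6% for FLAG-ZMYND8. With peaks wider than the minimum, 2 genes (CCNT1 and HEXIM1) with 2 ZMYND8 peaks were left, 2 genes had both lists, and the bodies held 0 ZMYND8 and 10 FLAG-ZMYND8 peaks, while 4613 of all 20098 genes had such a ZMYND8 peak and 9308 such a FLAG-ZMYND8 peak at the TSS. Around any transcript start, BRD2 gained its 2 ZMYND8 peaks, so that 5 overlapped a FLAG-ZMYND8 peak and the bodies held 0. There were 23 FLAG-ZMYND8 peaks at starts and 10 in bodies. With this setting 5 members had a ZMYND8 peak (40.2% of all genes) and 7 a FLAG-ZMYND8 peak (65.0%). At a reciprocal overlap of 50%, 0 ZMYND8 peaks at member TSSs had a partner. When only the widest FLAG-ZMYND8 peaks were kept, as many as the ZMYND8 list holds, 9 of them lay at the TSSs of 6 members. These were BRD2, CCNT1, CCNT2, HEXIM1, AFF4 and ELL2. Over all genes the share with such a peak was 35.5%, and the difference was not tested. CDK9 and LARP7 had no peak under any of these settings. The unknown depth limits any reading of a missing peak.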

Other observations

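Around HEXIM1, the FLAG-ZMYND8 list held peaks on both sides beyond the 3 kb window, with midpoints 4519 and 3177 bp upstream and 3895 bp downstream, each 167 bp wide. The following genes were chosen after their values were seen. HEXIM2, the paralog of HEXIM1, had 1 ZMYND8 peak (151 bases) and 3 FLAG-ZMYND8 peaks (940 bases) within 3 kb of its TSS. MEPCE, the enzyme that caps the 7SK RNA, had 1 ZMYND8 peak (230 bases) and 3 FLAG-ZMYND8 peaks (1225 bases). Among HEXIM1, HEXIM2, MEPCE and LARP7, only LARP7 was thus without a peak at the TSS. That set leaves out P-TEFb, which the particle also holds, and CDK9 had no peak there either. Over all protein-coding genes, 37.2% had a peak of neither list at the TSS.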
